A study of Mus musculus with 8 samples.

Results

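Epithelial transcription and splicing regulators are the genes described here: the grainyhead factors Grhl1, Grhl2 and Grhl3, the OVO zinc finger factors Ovol1 and Ovol2, the epithelial ETS factors Elf3 and Ehf, and the RNA-binding proteins Esrp1, Esrp2 and Rbm47. The 10 genes were taken by symbol from a table of 26930 genes, each matched 1 row, and all 10 were among the 15789 genes tested after a filter on low counts. RNA was sequenced in 8 libraries of mouse fibroblast reprogramming intermediates on day 8 under the OKSM factors (Oct4, Klf4, Sox2 and Myc). The groups were K36M cells under TGF-beta1 (2.5 ng/ml), K36M cells under Repsox (250 nM), WT cells under TGF-beta1 and WT cells under Repsox, with 2 libraries each, all in the medium named AGi. K36M is a histone H3 in which methionine stands in the place of the lysine at which H3K36 methylation occurs, and Repsox inhibits the type I receptor of TGF-beta. The WT libraries also carry the label H3. How K36M was expressed is not given in the sources used here. Nothing states that replicate libraries were grown separately, and the p-values then reflect the library-to-library spread alone, which may be technical. No library without either treatment was analysed here, so TGF-beta is compared with Repsox and not with untreated cells.

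Grainyhead factors bind and open enhancers of junction genes, and OVO factors repress the genes of the mesenchymal regulators ZEB1 and ZEB2, which in turn repress epithelial genes through E-box sequences. ESRP1 and ESRP2 direct the epithelial choice of exons in transcripts such as those of Fgfr2, Cd44, Ctnnd1 and Enah, and RBM47 binds RNA and is a cofactor of APOBEC1 in RNA editing. Fibroblasts largely lack these proteins, and a mesenchymal-to-epithelial transition is an early step of their reprogramming, which TGF-beta signalling is known to oppose.

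RefSeq promoter windows (build GRCm38.p6, 250 bases before to 50 after the start) were matched for 5 of the 10 genes, in 8 windows. Grhl2, Ovol1, Ehf, Esrp1 and Esrp2 were not matched. Shown are those of Grhl3, at chr4:135573583-135573882 (minus strand), and Elf3, at chr1:135258423-135258722 (minus strand), which held E-box forms, and those of Ovol2, at chr2:144331313-144331612 (minus strand), and the first Rbm47 start, at chr5:66151905-66152204 (minus strand), which held none, for comparison. Capitals mark CACCTG and CAGGTA, or their complements, the E-box forms that ZEB and SNAI proteins bind.
Grhl3: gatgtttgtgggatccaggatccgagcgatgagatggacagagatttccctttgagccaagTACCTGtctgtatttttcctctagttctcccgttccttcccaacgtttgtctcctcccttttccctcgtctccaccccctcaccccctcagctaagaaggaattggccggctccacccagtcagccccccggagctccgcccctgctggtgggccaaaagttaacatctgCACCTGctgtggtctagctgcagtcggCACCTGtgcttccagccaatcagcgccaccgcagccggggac
Elf3: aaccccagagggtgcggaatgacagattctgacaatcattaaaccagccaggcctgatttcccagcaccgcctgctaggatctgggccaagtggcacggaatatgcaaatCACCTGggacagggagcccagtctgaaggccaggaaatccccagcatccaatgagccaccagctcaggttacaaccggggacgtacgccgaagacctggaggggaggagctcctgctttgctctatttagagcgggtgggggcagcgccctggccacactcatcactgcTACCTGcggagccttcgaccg
Ovol2: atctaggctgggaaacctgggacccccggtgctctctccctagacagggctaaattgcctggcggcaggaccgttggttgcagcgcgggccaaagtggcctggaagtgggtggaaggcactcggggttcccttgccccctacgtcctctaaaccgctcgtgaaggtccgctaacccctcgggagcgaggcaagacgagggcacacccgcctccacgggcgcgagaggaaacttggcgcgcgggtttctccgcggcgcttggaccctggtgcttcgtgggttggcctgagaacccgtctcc
Rbm47: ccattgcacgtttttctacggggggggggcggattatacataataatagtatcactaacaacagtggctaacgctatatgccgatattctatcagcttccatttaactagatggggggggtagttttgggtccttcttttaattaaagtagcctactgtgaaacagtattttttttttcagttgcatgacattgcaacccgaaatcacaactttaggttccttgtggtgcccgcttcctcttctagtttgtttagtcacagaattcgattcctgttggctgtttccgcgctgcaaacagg

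Searched on both strands, CACCTG was in 20.2% and CAGGTA in 12% of all 32851 windows of that length in the table, and 1 or both in 29.5%. Of the 8 windows matched here, 2 held 1 or both, those of Grhl3 and Elf3. In Grhl3, CAGGTA lay on the opposite strand with its first base at -189 from the start, and CACCTG lay at -19 and at 9. In Elf3, CACCTG lay at -140, and CAGGTA at 30 on the opposite strand. The grainyhead site AACCNGTT, in 2.09% of all windows, and the OVO core CCGTTA, in 2.76%, were in none of the 8 windows. These matches describe the letters of the windows and do not show binding.

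The libraries held 10928302 to 15594217 counts, and the 2 libraries of each group lay together on both leading principal components (65.6% and 18.9% of the variance). Levels are in CPM, that is counts per 1000000 of a library total scaled by TMM (trimmed mean of M values). They are given for each library or as a group mean (n = 2). A value after ± is the standard error of a log2 value. Fold changes come from edgeR's quasi-likelihood test on all tested genes, with a standard error, and a change was counted where the p adjusted over all of them (Benjamini-Hochberg) was under 0.05. Fibroblast marker genes, all 10 of them read in every group, summed to 2910 and 3070 CPM in K36M under TGF-beta, 2010 and 1980 in K36M under Repsox, 18300 and 19900 in WT under TGF-beta and 6080 and 5410 in WT under Repsox. The 10 pluripotent cell markers summed to 1170 and 1150, 2130 and 2130, 41.7 and 36.9, and 1730 and 1500 CPM in the same order of groups. Exons of Elf3, Grhl2, Ovol2, Esrp1 and Rbm47 overlap by 111 to 359 bases those of noncoding genes on the other strand, which had group means of 0 to 2.74 CPM. In bulk RNA, fewer cells of a type and less RNA per cell cannot be told apart.

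The 10 regulators together summed to 410 and 425 CPM in K36M under TGF-beta, 742 and 701 in K36M under Repsox, 51.8 and 50 in WT under TGF-beta and 332 and 308 in WT under Repsox. By group mean, K36M under Repsox was the highest group for 8 of the 10 (27.9% of all tested genes), and WT under TGF-beta was the lowest for 9 of the 10 (38.9% of all tested genes). Grhl3 was highest in K36M under TGF-beta. Ehf stood apart, with its highest mean in WT under TGF-beta and its lowest in K36M under Repsox.

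**Figure D1:**
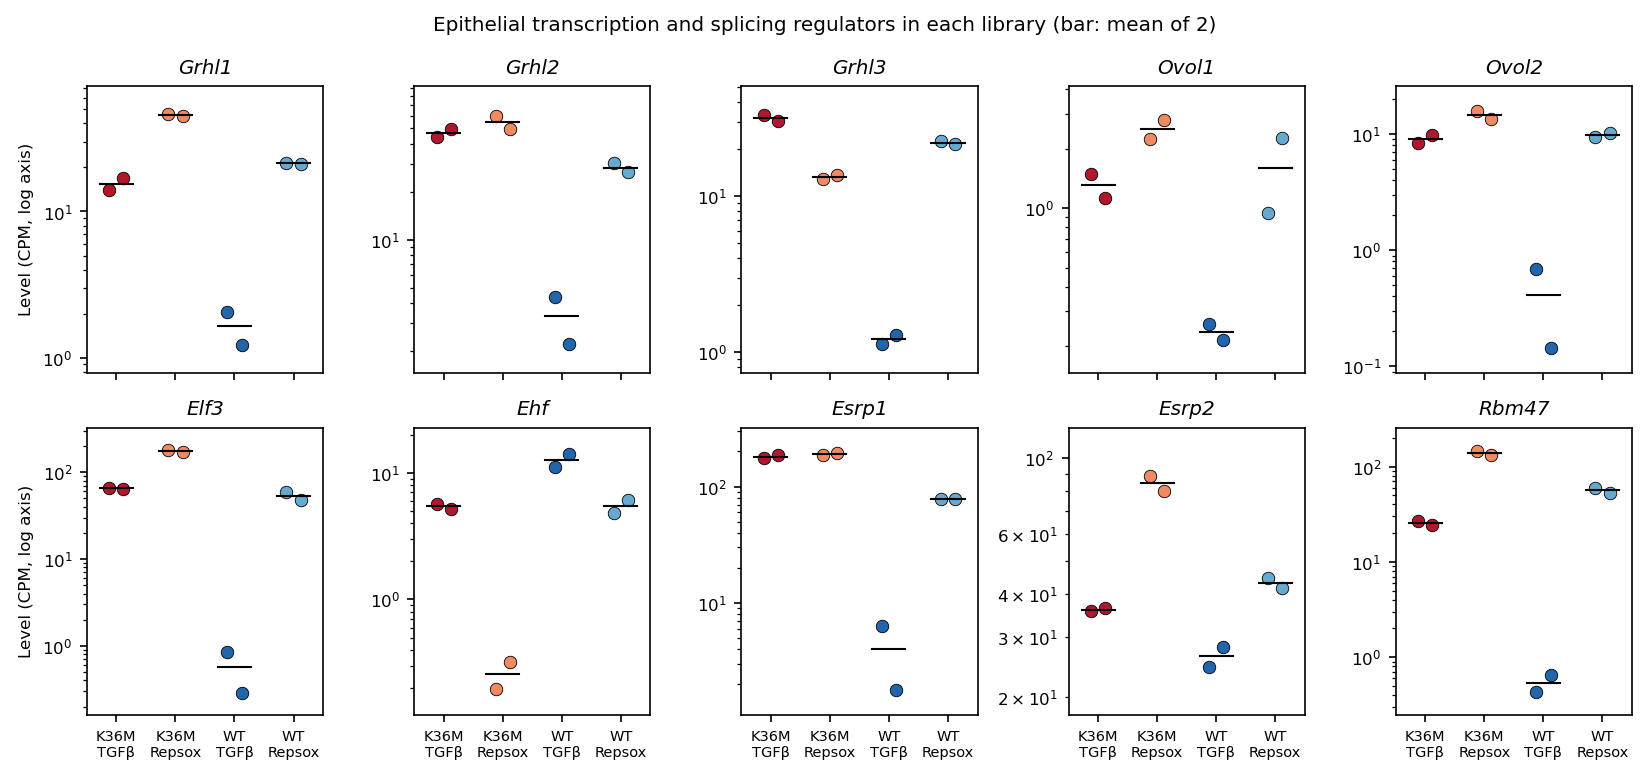
Level of each of the 10 genes (CPM, log axis, a separate range for each panel) in the 2 libraries of each group, with a bar at their mean. WT under TGF-beta is the lowest group in every panel but that of Ehf, where K36M under Repsox is lowest at 0.197 and 0.321 CPM.

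Per kilobase of annotated exon, Elf3 led in K36M under TGF-beta (mean 32.6 CPM per kb), in K36M under Repsox (87.5) and in WT under Repsox (26.7). Esrp1 was next at 28.7, 30.4 and 12.5 CPM per kb. The length counts every annotated exon, over 1 transcript for Elf3 (2000 bases) and 7 for Esrp1 (6305 bases). It can exceed the length of the transcripts in use, so the order of near values is uncertain. In CPM, Esrp1 was above Elf3 in each of these groups (means 181 against 65.2, 191 against 175 and 78.9 against 53.4). In WT under TGF-beta the order was another: Esrp2 led at 6.05 CPM per kb, Ehf followed at 2.27, and the other 8 genes stood at 0.0784 to 0.64. Rbm47 averaged 20.4 CPM per kb in K36M under Repsox, where its libraries overlapped those of Esrp2, and 0.0784 in WT under TGF-beta, where they overlapped those of Ovol1.

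In WT cells under TGF-beta, 9 of the 10 genes were lower than in WT cells under Repsox and only Ehf was higher. Of all genes tested, 33.4% were lower and 29.0% higher in this comparison. The median log2 fold change was -3.95 over the 10 genes and -0.07 over all genes. The libraries of these WT groups did not overlap for any of the 10, as for 79.4% of all genes. In K36M cells the same comparison called 5 lower, 2 higher and 3 in neither direction, where 23.6% of all genes were lower and 24.7% higher, and the median was -0.81 over the 10 against 0.01 over all. The libraries of the K36M groups did not overlap for 9 of the 10 (75.1% of all genes).

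K36M cells had higher levels than WT cells of 9 of the 10 genes under TGF-beta, with Ehf lower, where 36.4% of all genes were higher and 33.9% lower. The median log2 fold change was 4.18 over the 10 and 0.05 over all genes, and no library overlapped between the groups for any of the 10 (85.2% of all genes). Under Repsox 7 were higher, Grhl3 and Ehf were lower and Ovol1 was not called, against 28.8% higher and 26.9% lower of all genes, with a median of 0.96 over the 10 and 0.04 over all. There the libraries did not overlap for 9 of the 10 (75.4% of all genes).

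The interaction, which is the TGF-beta over Repsox difference in K36M minus that in WT, was above 0 for 8 genes, below 0 for Esrp2 and not called for Ovol1, where 28.5% of all genes were above and 22.6% below. Its median was 3.54 over the 10 and 0.09 over all genes. Because the 10 genes were chosen with earlier results of these data known, these counts describe the genes and no test was made of the list.

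**Figure D2:**
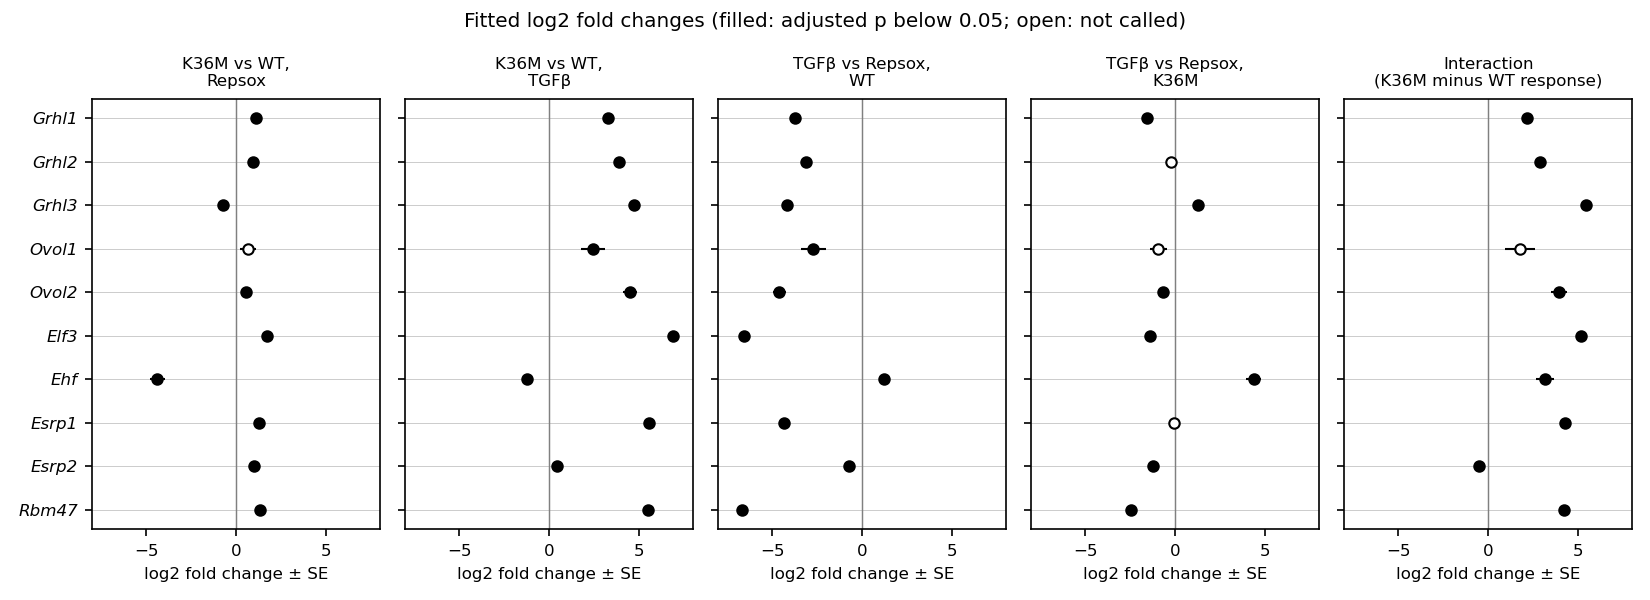
Log2 fold change with its standard error for the 10 genes (rows) in the 4 pairwise comparisons and the interaction (panels), filled where the adjusted p was below 0.05. In WT 9 genes lie to the left of 0 for TGF-beta, with Rbm47 at -6.66 and Elf3 at -6.58, while in K36M Grhl2 (-0.23), Ovol1 (-0.93) and Esrp1 (-0.08) were not called.

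Grhl1 (chromosome 12, 25257152 to 25302256 on mm9) encodes a grainyhead factor of the epidermis that regulates desmosomal cadherin genes. It had 14 and 16.8 CPM in K36M under TGF-beta, 46.2 and 44.9 in K36M under Repsox, 2.06 and 1.22 in WT under TGF-beta and 21.4 and 21.2 in WT under Repsox. All 4 groups were separate. TGF-beta libraries were 13.2-fold lower than Repsox libraries in WT (log2 -3.72 ± 0.21, adjusted p = 4.49e-13) and 2.96-fold lower in K36M (log2 -1.57 ± 0.14, adjusted p = 2.69e-09). K36M stood 9.51-fold above WT under TGF-beta (log2 3.25 ± 0.22) and 2.14-fold above it under Repsox (log2 1.10 ± 0.13).

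Grhl2 (chromosome 15, 37162791 to 37293324) encodes a grainyhead factor that activates Cdh1 and claudin genes. Its level was 44.3 and 49.7 CPM in K36M under TGF-beta, 60.2 and 49.5 in K36M under Repsox, 4.39 and 2.22 in WT under TGF-beta and 30.2 and 26.5 in WT under Repsox. The K36M libraries of the 2 treatments overlapped and were both above those of WT. TGF-beta was 8.78-fold lower than Repsox in WT (log2 -3.13 ± 0.20, adjusted p = 4.67e-12), whereas in K36M the difference was not called (log2 -0.23 ± 0.13, 95% interval -0.50 to 0.05, adjusted p = 0.174). Fitted on the K36M libraries alone, that difference was called (adjusted p = 0.0324). The interaction was 2.91 ± 0.25 on the log2 scale (adjusted p = 1.59e-09).

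Grhl3 (chromosome 4, 135097803 to 135129545), required in mice for closure of the skin barrier and the neural tube, was the grainyhead gene that differed between treatments in opposite directions in the 2 genotypes. There were 33.1 and 30.6 CPM in K36M under TGF-beta, 12.8 and 13.7 in K36M under Repsox, 1.12 and 1.29 in WT under TGF-beta and 22.5 and 21.5 in WT under Repsox. In K36M the TGF-beta libraries were the higher ones, by 2.40-fold (log2 1.26 ± 0.14, adjusted p = 6.9e-08), and in WT the lower ones, by 18-fold (log2 -4.17 ± 0.21, adjusted p = 5.38e-14). The interaction, 5.44 ± 0.25 on the log2 scale (adjusted p = 7.01e-14), stood beside that of Elf3 at 5.16 ± 0.28, and without WT TGF-beta library 1 they were 5.34 for Grhl3 and 6.06 for Elf3. Under Repsox, K36M was 1.66-fold below WT (log2 -0.73 ± 0.14, adjusted p = 0.000111), and under TGF-beta it was 26.1-fold above (log2 4.71 ± 0.20).

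The make-up of the grainyhead family differed between the groups. As a share of the summed level per kb of Grhl1, Grhl2 and Grhl3, Grhl3 made up 49.6 and 44.3% in K36M under TGF-beta, 16 and 18.4% in K36M under Repsox, 22.4 and 38.1% in WT under TGF-beta and 41 and 41.5% in WT under Repsox. Grhl1 made up 16.7 and 19.4% in K36M under TGF-beta and 46 and 48% in K36M under Repsox. The summed level itself was 23.9 and 24.8 CPM per kb in K36M under TGF-beta and 28.7 and 26.8 in K36M under Repsox. In WT the sum was 1.79 and 1.22 CPM per kb under TGF-beta and 19.7 and 18.6 under Repsox. The shares rest on the same exon lengths, are given as a description and were not tested.

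**Figure D3:**
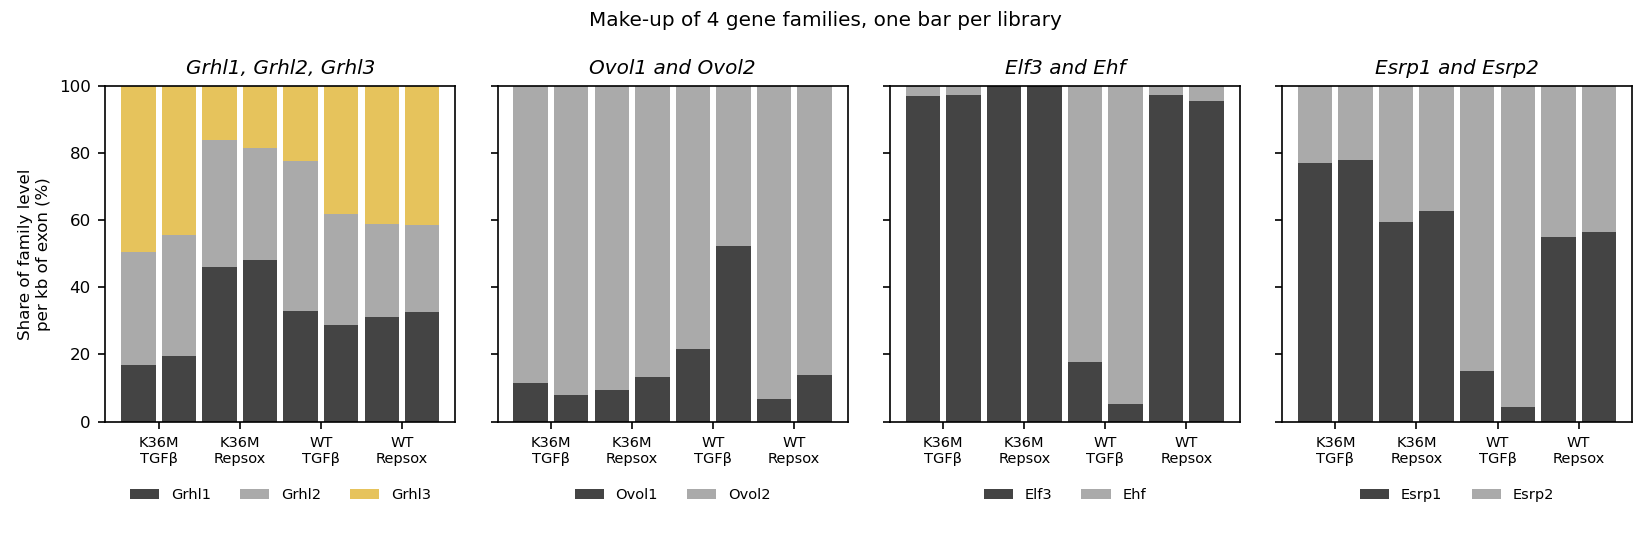
Share of each gene in the summed level per kb of exon of its family (%), for the 8 libraries, in 4 families. Grhl3 takes 49.6 and 44.3% of the grainyhead level in K36M under TGF-beta, and Ehf and Esrp2 take most of their pairs in WT under TGF-beta alone.

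Ovol1 (chromosome 19, 5549137 to 5560575), a zinc finger repressor with roles in epidermal and germ cell differentiation, was read at low levels throughout, with group means of 0.0816 to 0.87 CPM per kb. It had 19 and 13 counts in K36M under TGF-beta, 34 and 35 in K36M under Repsox, 3 and 3 in WT under TGF-beta and 14 and 30 in WT under Repsox. At this depth its libraries overlapped between K36M and WT under Repsox (2.24 and 2.81 against 0.943 and 2.26 CPM), and that difference was not called (log2 0.66 ± 0.45, 95% interval -0.28 to 1.60, adjusted p = 0.227; log2 1.41 and adjusted p = 0.052 without WT Repsox library 2). Under TGF-beta K36M was 5.42-fold higher (log2 2.44 ± 0.69, adjusted p = 0.00351). In WT, TGF-beta was 6.52-fold lower (log2 -2.71 ± 0.67, adjusted p = 0.00123; log2 -1.96 without WT Repsox library 2), and in K36M the difference was not called (log2 -0.93 ± 0.47, adjusted p = 0.112). The interaction of 1.78 ± 0.85 was not called (adjusted p = 0.086); it was called without WT Repsox library 1 (log2 2.29, adjusted p = 0.0264) and was 1.03 without library 2.

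Ovol2 (chromosome 2, 144130911 to 144157882) encodes a repressor of Zeb1 that holds cells in an epithelial state. Its counts were 107 and 112 in K36M under TGF-beta, 240 and 167 in K36M under Repsox, 8 and 2 in WT under TGF-beta and 141 and 136 in WT under Repsox. WT under TGF-beta was far below the rest, and the levels of K36M under TGF-beta (8.35 and 9.78 CPM) overlapped those of WT under Repsox (9.5 and 10.3). TGF-beta was 24.6-fold lower than Repsox in WT (log2 -4.62 ± 0.36, adjusted p = 1.86e-10) and 1.62-fold lower in K36M (log2 -0.69 ± 0.21, adjusted p = 0.00839). The K36M difference was not called without K36M Repsox library 1 (adjusted p = 0.0897) or without K36M TGF-beta library 1 (0.0848). The WT difference was -6.01 without WT TGF-beta library 1 and -3.83 without library 2. K36M was 1.48-fold above WT under Repsox (log2 0.57 ± 0.20, adjusted p = 0.0213), a call that was lost with DESeq2 (adjusted p = 0.0605), without WT Repsox library 1 (0.0669) and without K36M Repsox library 1 (0.171). Under TGF-beta it was 22.5-fold above (log2 4.49 ± 0.37; 5.88 without WT TGF-beta library 1 and 3.70 without library 2).

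Elf3 (chromosome 1, 137150151 to 137155049), an ETS factor of gut and other simple epithelia, had its lowest levels in WT under TGF-beta by a wide margin. It reached 66.4 and 64.1 CPM in K36M under TGF-beta, 181 and 169 in K36M under Repsox, 0.86 and 0.287 in WT under TGF-beta and 59.5 and 47.4 in WT under Repsox. The mean of the highest group was 305 times that of the lowest. In WT, TGF-beta was 96-fold lower than Repsox (log2 -6.58 ± 0.22, adjusted p = 6.19e-17), and in K36M it was 2.68-fold lower (log2 -1.42 ± 0.10, adjusted p = 1.15e-10). K36M was 117-fold above WT under TGF-beta (log2 6.87 ± 0.22) and 3.27-fold above it under Repsox (log2 1.71 ± 0.10). The opposite-strand gene Gm16606, which shares 162 exonic bases with Elf3, had a mean of 1.56 CPM in WT under TGF-beta, and its part in the Elf3 counts there was not tested. With 10 and 4 counts behind the WT TGF-beta values, the fold of K36M over WT under TGF-beta was 218 without WT TGF-beta library 1 and 75.1 without library 2, and that of the WT treatment difference 180 and 61.8.

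Ehf (chromosome 2, 103103590 to 103143435), an epithelial ETS factor related to Elf3, ran opposite to Elf3 in all 4 pairwise comparisons. Its counts were 73 and 59 in K36M under TGF-beta, 3 and 4 in K36M under Repsox, 130 and 197 in WT under TGF-beta and 72 and 81 in WT under Repsox. In CPM this was 5.70 and 5.15, 0.197 and 0.321, 11.2 and 14.1, and 4.85 and 6.11 for the groups in that order, and K36M under TGF-beta overlapped WT under Repsox. TGF-beta was 20.7-fold higher than Repsox in K36M (log2 4.37 ± 0.42, adjusted p = 9.94e-09) and 2.32-fold higher in WT (log2 1.21 ± 0.22, adjusted p = 6.04e-05). K36M was 2.33-fold below WT under TGF-beta (log2 -1.22 ± 0.23, adjusted p = 5.65e-05) and 20.8-fold below it under Repsox (log2 -4.38 ± 0.41, adjusted p = 6.16e-09). Within the pair, Ehf made up 82.3 and 94.6% of the level per kb in WT under TGF-beta, and between 0.039 and 4.42% in the libraries of the other groups. The summed fibroblast markers were also highest in WT under TGF-beta and lowest in K36M under Repsox. By group mean 7 of those 10 markers were highest in WT under TGF-beta, while Thy1, Pdgfra and Pdgfrb were highest in WT under Repsox, and 9 were lowest in K36M under Repsox, with Pdgfra lowest in K36M under TGF-beta. The markers' part in the Ehf values was not tested.

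Esrp1 (chromosome 4, 11259080 to 11313930), the main epithelial splicing regulator, had higher levels in every K36M library than in any WT library. It stood at 175 and 187 CPM in K36M under TGF-beta, 188 and 195 in K36M under Repsox, 6.28 and 1.79 in WT under TGF-beta and 78.9 and 78.9 in WT under Repsox. The K36M difference between treatments was not called (log2 -0.08 ± 0.13, 95% interval -0.36 to 0.20, adjusted p = 0.639), while in WT TGF-beta was 20.4-fold lower (log2 -4.35 ± 0.21, adjusted p = 2.86e-14) and the interaction was 4.26 ± 0.25 (adjusted p = 4.97e-12). K36M was 46.6-fold above WT under TGF-beta (log2 5.54 ± 0.20) and 2.43-fold above it under Repsox (log2 1.28 ± 0.14). The WT TGF-beta libraries differed widely, with 73 and 25 counts. Without library 1 the log2 value in WT was -5.44 and the K36M over WT value under TGF-beta 6.64; without library 2 they were -3.65 and 4.84.

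Esrp2 (chromosome 8, 108654219 to 108660874), its paralog, changed least of the 10, with a 3.21-fold range of group means. Levels were 35.6 and 36.3 CPM in K36M under TGF-beta, 88.6 and 80.2 in K36M under Repsox, 24.5 and 28 in WT under TGF-beta and 44.6 and 41.7 in WT under Repsox. TGF-beta was lower than Repsox in both genotypes, 2.35-fold in K36M (log2 -1.23 ± 0.10, adjusted p = 6.75e-10) and 1.64-fold in WT (log2 -0.71 ± 0.11, adjusted p = 3.77e-06). This was the 1 gene of the 10 with an interaction below 0, -0.52 ± 0.15 (adjusted p = 0.00461), a call lost without WT TGF-beta library 2 (log2 -0.42, adjusted p = 0.0558). K36M was 1.36-fold above WT under TGF-beta (log2 0.45 ± 0.11) and 1.96-fold above it under Repsox (log2 0.97 ± 0.10). Its annotated exons share 219 bases with those of Nfatc3 on the other strand, which was read at 99.3, 132, 143 and 123 mean CPM in K36M under TGF-beta, K36M under Repsox, WT under TGF-beta and WT under Repsox. They also share 119 bases with the noncoding gene 1810019D21Rik on the other strand, at 3.94, 3.95, 0.574 and 2.41 mean CPM in that order. The strand setting of the counting was not given, and the part of reads from either gene in the Esrp2 counts was not tested.

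As a share of the pair's level per kb, Esrp1 made up 77.1 and 78% in K36M under TGF-beta, 59.4 and 62.6% in K36M under Repsox, 15 and 4.22% in WT under TGF-beta and 54.9 and 56.6% in WT under Repsox. The summed level of the pair was 35.9 and 38 CPM per kb in K36M under TGF-beta, 50.3 and 49.4 in K36M under Repsox, 6.64 and 6.75 in WT under TGF-beta and 22.8 and 22.1 in WT under Repsox. Most of what remained in WT under TGF-beta was Esrp2.

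Rbm47 (chromosome 5, 66407788 to 66564356) encodes the RNA-binding cofactor of APOBEC1 and was lower with TGF-beta than with Repsox in both genotypes. It was read at 26.9 and 24.2 CPM in K36M under TGF-beta, 147 and 133 in K36M under Repsox, 0.43 and 0.646 in WT under TGF-beta and 60.1 and 52.5 in WT under Repsox. The groups were separate, and the WT TGF-beta values rest on 5 and 9 counts. TGF-beta was 5.46-fold lower in K36M (log2 -2.45 ± 0.10, adjusted p = 1.35e-14) and 101-fold lower in WT (log2 -6.66 ± 0.20, adjusted p = 9.05e-18), with an interaction of 4.21 ± 0.28 (adjusted p = 2.34e-11). K36M was 46-fold above WT under TGF-beta (log2 5.52 ± 0.22) and 2.48-fold above it under Repsox (log2 1.31 ± 0.09).

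The mesenchymal repressors that oppose these factors, a list of 7 genes, were lower in K36M for 6 under TGF-beta and 6 under Repsox, with 0 higher in either (medians -3.44 and -4.82). Of all genes tested, 33.9% were lower in K36M under TGF-beta and 26.9% under Repsox. Zeb2 stood at 5.93 and 6.20 CPM in K36M under TGF-beta, 2.43 and 4.26 in K36M under Repsox, 104 and 119 in WT under TGF-beta and 67.9 and 64.2 in WT under Repsox. TGF-beta was higher than Repsox for Zeb2 in K36M (log2 0.89 ± 0.22, adjusted p = 0.00196) and in WT (log2 0.75 ± 0.11, adjusted p = 2.22e-06), and the interaction was not called (0.14 ± 0.24, adjusted p = 0.673). The entry named Zeb1 had an identifier that the annotation lacks, and its values are not given, although it is counted in the list. Snai1, which encodes Snail, was not called between treatments in K36M (log2 0.13 ± 0.17, adjusted p = 0.57) or in WT (log2 -0.33 ± 0.15, adjusted p = 0.0579). With TGF-beta in WT, 4 of the 7 were lower and Zeb2 alone was higher (33.4% and 29.0% of all genes). The lower ones were Twist2 (log2 -4.59 ± 0.34), Snai2 (-1.05 ± 0.22), Prrx1 (-1.05 ± 0.11) and Twist1 (-1.04 ± 0.17). In K36M 1 was lower and 2 were higher (23.6% and 24.7%).

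Epithelial effector genes, a list of 24 junction, keratin and protease genes, stood beside the regulators. In WT, 22 were lower and 1 was higher with TGF-beta (median -3.43), where 33.4% of all genes were lower and 29.0% higher. In K36M 12 were lower and 6 higher (median -0.15), where the shares were 23.6% and 24.7%. K36M exceeded WT for 23 under TGF-beta with 1 lower (median 4.70), against 36.4% higher and 33.9% lower of all genes. Under Repsox it exceeded WT for 22 with 0 lower (median 1.18), against 28.8% and 26.9%. Cdh1, the gene of E-cadherin, stood at 1110 and 1130 CPM in K36M under TGF-beta, 1380 and 1330 in K36M under Repsox, 41 and 23.1 in WT under TGF-beta and 666 and 679 in WT under Repsox. Its interaction was 4.13 ± 0.17 (adjusted p = 1.65e-14), and those of Epcam and Krt8 were 4.07 ± 0.21 and 4.11 ± 0.12.

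**Figure D4:**
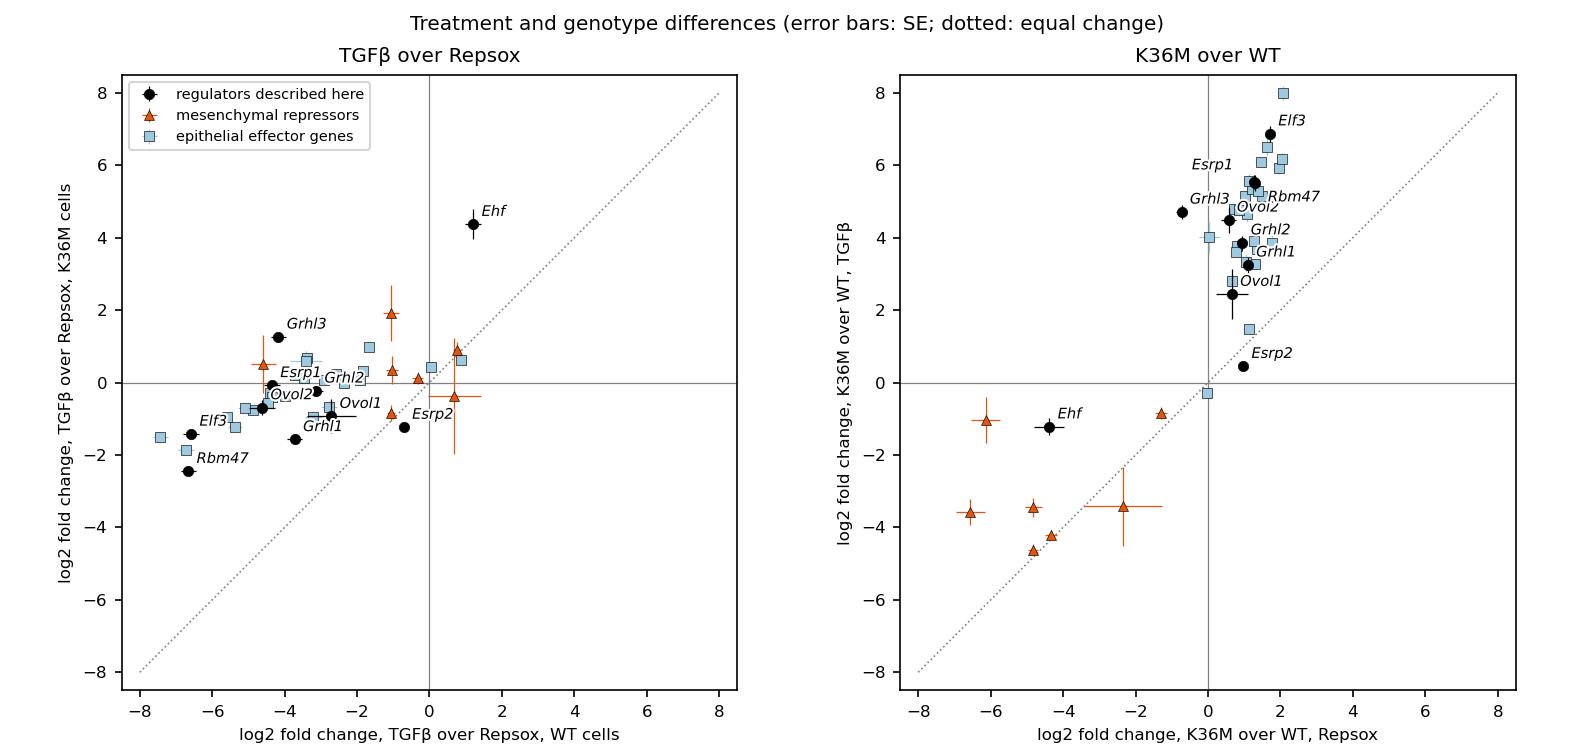
Log2 fold change of TGF-beta over Repsox in K36M (y) against WT (x), left, and of K36M over WT under TGF-beta (y) against Repsox (x), right, for the 10 regulators, 24 epithelial effector genes and 7 mesenchymal repressors, with standard errors. The 2 axes of a panel share no library. Grhl3 lies at 1.26 against -4.17 and Ehf at 4.37 against 1.21 on the left.

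Transcripts whose exon choice ESRP proteins direct were read as whole genes, so the exons used cannot be seen. Of 10 such genes, 4 were higher and 5 lower with TGF-beta in WT, and 4 higher and 4 lower in K36M. Of all genes, 29.0% were higher and 33.4% lower in WT, and 24.7% higher and 23.6% lower in K36M. Fgfr2, a fibroblast growth factor receptor gene, had 76.1 and 72.5 CPM in K36M under TGF-beta, 81.2 and 82.8 in K36M under Repsox, 10.1 and 9.90 in WT under TGF-beta and 37.6 and 36 in WT under Repsox. Its total level was not called between treatments in K36M (log2 -0.14 ± 0.09, adjusted p = 0.189) and was 3.68-fold lower under TGF-beta in WT (log2 -1.88 ± 0.11). Cd44, a hyaluronan receptor gene, ran the other way, at 153 and 188 CPM in K36M under TGF-beta, 27 and 29.8 in K36M under Repsox, 1410 and 1430 in WT under TGF-beta and 294 and 343 in WT under Repsox. The total of Ctnnd1, which encodes p120 catenin, was 640 and 655 CPM in K36M and 620 and 657 in WT under TGF-beta, a difference that was not called (log2 0.02 ± 0.06, adjusted p = 0.774). Enah was 1.70-fold lower in K36M than in WT under TGF-beta (log2 -0.76 ± 0.08) and 1.32-fold lower under Repsox (log2 -0.40 ± 0.08).

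Other splicing regulators, a list of 23 of which 18 were tested, were divided. In WT, 9 were higher and 9 lower with TGF-beta (median 0.02), where 29.0% of all genes were higher and 33.4% lower. K36M against WT under TGF-beta gave 9 higher and 7 lower (median 0.07), where 36.4% of all genes were higher and 33.9% lower. Mbnl1, whose protein favours exons of differentiated cells, was lower in K36M than in WT under TGF-beta (log2 -2.71 ± 0.09) and under Repsox (log2 -2.41 ± 0.09). Its relative Mbnl3 was higher in K36M than in WT under TGF-beta (log2 2.33 ± 0.13) and under Repsox (log2 1.39 ± 0.08), and lower with TGF-beta than with Repsox in K36M (log2 -2.60 ± 0.09) and in WT (log2 -3.54 ± 0.12). Among 11 relatives of the 10 regulators, 8 were tested, and in WT 3 were lower and 2 higher with TGF-beta (33.4% and 29.0% of all genes). Tfcp2l1, a grainyhead-related factor of naive pluripotent cells, fell by 6.10 on the log2 scale in WT (± 0.18), and Elf4, an ETS relative of Elf3, rose by 1.11 ± 0.08.

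Genes with the most similar profile were found by the root mean square difference of log2 CPM over the 8 libraries, each gene centred on its mean, among 13390 named genes. For Esrp1 these were Cldn7, Cdh1 and Bmf (0.22 to 0.31), for Rbm47 Dlx3, Grik3 and Dppa5a (0.17 to 0.34), and for Grhl2 Oip5, Lad1 and Bex4 (0.15 to 0.22). Elf3 was nearest to Slc5a5, Arhgef16 and Tjp3 (0.47 to 0.48), Ovol2 to Eras, Smagp and Sox15 (0.27 to 0.28), and Grhl1 to Tmem125, Fam83g and Lrriq4 (0.19 to 0.23). The nearest genes were Car2, Wdr31 and Ccdc85c for Grhl3 (0.25 to 0.34), Nptx2, Acer2 and Cwh43 for Ovol1 (0.27 to 0.33), and Iqsec1, S1pr2 and Idh2 for Esrp2 (0.07 to 0.09). Ehf was nearest to Hoxa9, Sox4 and Magi2 (0.41 to 0.47), and its nearest fellow among the 10, Esrp2, was 2.48 away, at rank 11158. Grhl1 and Ovol2 were each other's nearest among the 10 (0.47), as were Elf3 and Rbm47 (0.71). Among all genes compared, Ovol2 ranked 72 for Grhl1 and Grhl1 27 for Ovol2. Rbm47 ranked 23 for Elf3 and Elf3 50 for Rbm47. The nearest of the 10 ranked 4927 for Esrp2 and 1113 for Ovol1. Distances were not divided by a gene's spread over the libraries, an SD of 0.66 for Esrp2 and 3.33 for Elf3 (log2).

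Trophoblast also expresses Grhl2. Of 11 trophoblast markers 9 had a count in some library, and their sum was 280 and 263 CPM in K36M under TGF-beta, 894 and 846 in K36M under Repsox, 7.05 and 8.32 in WT under TGF-beta and 318 and 285 in WT under Repsox. Prl3d1 was not among the counted genes, and Tpbpa was at 0 in every group. Outside WT under TGF-beta, large parts of the sum came from Krt7 and Tfap2c, which the epithelial lists here also held. Their means were 141, 401, 0.524 and 95.7 CPM and 79.2, 212, 2.22 and 125 CPM, in that order of groups. Hand1, Plac1, Ascl2 and Gata3 were also highest in K36M under Repsox. Means of Hand1 were 3.49, 78.7, 0.115 and 14.4 CPM in the same order, and those of Plac1 0.439, 47.2, 0.294 and 11.4. Ascl2 had 7.74, 45.2, 0.903 and 16.4 CPM. Gata3, also on an epithelial list here, had 30.4, 76, 2.22 and 26.6. Cdx2 and Elf5 had group means of at most 1.35 and 2.71 CPM. Eomes was highest in WT under Repsox (mean 9.76 CPM). Under Repsox, 6 of the 9 tested were higher in K36M than in WT (28.8% of all genes) and only Eomes was lower (26.9%). Under TGF-beta 7 were higher and 0 lower in K36M (36.4% and 33.9% of all genes). With TGF-beta against Repsox, all 9 were lower in WT (33.4% of all genes). In K36M that comparison gave 7 lower and 0 higher (23.6% and 24.7%). The 8 keratinocyte markers summed to 39.8 and 36.4, 26 and 21.7, 10.7 and 9.68, and 12.5 and 11.6 CPM in the same groups. The part of trophoblast, pluripotent, keratinocyte or fibroblast RNA in the values of the 10 genes was not tested.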

How the data were processed

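The deposited values were whole-read counts per gene and library in 1 table. STAR 2.5.0, HTSeq 0.11.2, edgeR and the mm9 build are named per the submitters' processing notes, while annotation, strand setting and filters are not given in the sources used here. Gene coordinates and exon lengths (union of exons) came from GENCODE vM1 on mm9. Of the counted genes, 3195 were at 0 in every library.

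The fit used edgeR (version 4.0.16, under R 4.3.3). Its filterByExpr left 15789 genes, the scaling factors ran from 0.894 to 1.057, and 4 group means were fitted over all 8 libraries (4 residual and 17.5 prior degrees of freedom). A standard error is the size of a log2 value divided by the root of its F statistic. A simulation with counts drawn from edgeR's own estimate of the spread was run to check the code. It had few differing genes in the comparison checked, so it does not measure error rates in these data. Replicates differed by more than counting error (chi-square per degree of freedom 2.70 to 9.09).

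The genes and lists were chosen with earlier results of these data known. Named genes were all 10 regulators, 10 fixed partners and, per list and comparison, the 2 called genes with the smallest adjusted p, of which some are printed. Nearest genes were the 3 with the smallest distance. Of 125 list entries, 5 had no single row. Alternatives were other scalings, filters and fits, DESeq2 1.42.0, a replicate block and each library left out.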

Additional observations from a re-analysis of the deposited data

Results flagged for a closer look

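The treatment difference (TGF-beta over Repsox) differed between K36M and WT, by the interaction in edgeR's quasi-likelihood test, for 9 of the 10 genes, 8 above and 1 below 0, where 28.5% of all genes tested were above and 22.6% below. The difference, K36M minus WT on the log2 scale, was 2.15 for Grhl1, 2.91 for Grhl2, 5.44 for Grhl3, 3.93 for Ovol2, 5.16 for Elf3, 3.16 for Ehf, 4.26 for Esrp1, -0.52 for Esrp2 and 4.21 for Rbm47. For Grhl3 the direction itself differed, with 2.40-fold higher levels under TGF-beta in K36M and 18-fold lower levels in WT. For Ehf both genotypes had higher levels under TGF-beta. The Ovol2 value was 5.31 without WT TGF-beta library 1 and 3.13 without library 2, that of Elf3 6.06 and 4.52, and that of Esrp1 5.36 and 3.57. With 2 libraries a group, no search for outlying libraries was made.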

How the results depend on the processing

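Over 15 alternatives for each pairwise comparison and 14 for the interaction, no value of the 10 genes changed direction. Counts of called regulators and of all called genes stayed within 1.5 times the value given, except that the 1 regulator below 0 in the interaction was 0 to 1 over the fits that left out a library (0 without WT TGF-beta library 2). Besides the Ovol1, Ovol2, Grhl2 and Esrp2 calls named in the report, no call on a single regulator was lost or gained. Upper quartile factors moved the median log2 fold change of all genes by 0.12 in the comparison of K36M with WT under TGF-beta and in the interaction, and called the same number of regulators in each direction. The replicate numbers did not pair the libraries: 6 correlations of deviations between groups ran from -0.02 to 0.032, 2 of them below 0, so not every library went best with its own number. With the replicate block the interaction gave 8100 called genes in place of 8055, with 8 regulators above and 1 below 0. Depth limits Ovol1 in all groups, Ehf in K36M under Repsox, with 3 and 4 counts, and Ovol2, Elf3 and Rbm47 in WT under TGF-beta, where their libraries held 2 to 10 counts.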

Other observations

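Of 11 other epithelial transcription factor genes, 10 were tested. With TGF-beta 6 were lower and 1 higher in WT, and 4 lower and 1 higher in K36M. Of all genes, 33.4% were lower and 29.0% higher in WT, and 23.6% lower and 24.7% higher in K36M. The AP-2 genes differed: Tfap2c was 0.77 log2 units higher in K36M than in WT under Repsox, whereas Tfap2a was lower (log2 -3.49 ± 0.20, adjusted p = 1.5e-12). Under TGF-beta, both were higher in K36M, by 5.17 and 1.03 log2 units. The stratified epithelium keratin gene Krt5 was higher with TGF-beta than with Repsox in K36M (log2 3.25 ± 0.37, adjusted p = 1.92e-07). Its counts were 160 and 109 in K36M under TGF-beta, 21 and 11 in K36M under Repsox, 2 and 1 in WT under TGF-beta and 10 and 26 in WT under Repsox. With TGF-beta in K36M, 2 of the 5 keratinocyte markers tested were higher and 0 lower (median 0.11), where 24.7% of all genes were higher. Krt14 had 20.9 and 19.2 CPM under TGF-beta and 20.7 and 16.7 under Repsox there, and Trp63 was not called (log2 -0.54 ± 0.56).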
